A study of Saccharomyces cerevisiae with 36 samples.

Results

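Budding yeast makes ethanol from pyruvate and, once sugar becomes scarce, can take that ethanol back through acetaldehyde and acetate to acetyl-CoA. The 9 genes described here encode the enzymes of that route: the pyruvate decarboxylases PDC1, PDC5 and PDC6, the alcohol dehydrogenases ADH1 and ADH2, the aldehyde dehydrogenases ALD4 and ALD6, and the acetyl-CoA synthetases ACS1 and ACS2. They were chosen by name, as rows of the count table whose gene name is one of the 9, and all 9 of the 5697 genes in the table were among the 5479 that passed the filter on low counts. The name search found 10 rows, because YMR169C carries ALD4 as an older alias; RefSeq names that row ALD3, so YOR374W was taken as ALD4 and ALD3 was kept with the other genes of the pathway.

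The libraries came from Saccharomyces cerevisiae FY4, a prototrophic haploid laboratory strain, grown in minimal Delft medium after pre-culture in pyruvate. The gal80Δ strain lacks GAL80, the inhibitor of the galactose activator Gal4, and was set against the wild type (WT), which carries GAL80. Each strain was grown in 0.1% fructose with 0.9% palatinose, a slowly used isomer of sucrose taken up through the maltose genes, or in 0.1% fructose alone. Cells were taken at mid-log and 10 h and 16 h after it, with 3 replicates in each of 12 groups, 36 libraries in all. The sources used here do not say how many gal80Δ clones were used.

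Fermentation ends with pyruvate being decarboxylated to acetaldehyde, which Adh1 reduces to ethanol while regenerating NAD+. Adh2 runs the opposite reaction when ethanol is the carbon source, aldehyde dehydrogenases turn acetaldehyde into acetate, and acetyl-CoA synthetases join acetate to coenzyme A. Each step is served by paralogs, of which ADH2 and ACS1 are textbook cases of glucose-repressed genes that are switched on by the Snf1 kinase and the activators Adr1 and Cat8, whereas PDC1 and ADH1 are abundant glycolytic genes. Whether galactose signalling bears on such genes in a medium without galactose is what the comparison of gal80Δ with WT addresses.

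Library totals ran between 6020770 and 11785148 counts, with a median of 8282840.5, and 3 counts corresponded to 0.262 to 0.536 CPM (counts per library size after edgeR's TMM scaling, the unit used throughout). GAL80 was at 7.24 to 16.2 CPM in the gal80Δ libraries, against 46.5 to 98.0 CPM in the WT libraries. GAL1, a direct Gal4 target, was at 7010 to 18775 CPM in gal80Δ, against 21.7 to 87.8 CPM in WT. The a-factor gene MFA1 was expressed in every library, at 97.6 to 1075 CPM in gal80Δ and 81.2 to 1739 CPM in WT. The alpha-factor gene MF(ALPHA)1 reached at most 17.7 CPM and MF(ALPHA)2 at most 1.80 CPM. Among other a-cell genes, MFA2 was at 170 to 2016 CPM and STE2 at 59.6 to 440 CPM. BAR1 and STE6 were lower, at 8.54 to 116 CPM and 8.73 to 54.7 CPM. These overlapped the alpha-cell genes STE3 (3.80 to 25.1 CPM) and SAG1 (5.92 to 21.2 CPM). Together the 9 genes took between 0.573% (gal80Δ in fructose at +10 h) and 1.33% (WT in fructose at +16 h) of the counts, as group means. Replicates are separate samples, and the labels do not say whether a letter names 1 culture followed over time, so p-values measure the spread between these samples.

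Among the WT libraries 3 stood apart in a shared set of genes: mid-log C in fructose-palatinose, mid-log C in fructose and +10 h B in fructose. Their deviations from the other 2 libraries of their group correlated at 0.765 to 0.807 over 4620 genes, and 144 genes were more than 2-fold lower in all 3. In that order they were off by more than 2-fold in 213, 201 and 399 genes, against 0 to 176 in the 27 libraries of the other 9 groups. In fructose at mid-log replicate A was off in 193 genes, nearly all higher, and B in 15, so A and C differed from B to a like extent. ADH1 was among the genes affected, at -1.75, -1.50 and -2.68 on the log2 scale against the other libraries of each group. ALD6 deviated by -0.87, -0.88 and -1.59, though in fructose at mid-log replicate B was also low in ALD6, at -0.50. ACS1 deviated by -0.24, -0.30 and -1.19, while PDC1 stayed within -0.18 and 0.25. Another library, WT in fructose at +16 h, replicate C, was at 1.55 for ADH2 and 1.22 for ALD4 against its group. Every test on the 9 genes was also run without the first 3 libraries, where 229 of 243 kept their direction and their side of the threshold, and without this one, where 232 of 243 did.

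The culture density at harvest also differed. At +16 h the optical density was 2.6 to 2.8 in WT cultures with palatinose, against 1.85 to 2.1 in WT cultures with fructose alone. The gal80Δ cultures reached 1.9 to 2.1 with palatinose and 1.8 to 1.85 in fructose alone. At +10 h the ranges were 1.55 to 1.65 for gal80Δ with palatinose and 1.65 to 1.8 for WT with palatinose. In fructose alone they were 1.45 to 1.5 for gal80Δ and 1.5 to 1.55 for WT. In WT in fructose replicate C was the densest at +16 h, at 2.1 against 1.9 and 1.85, and at mid-log, at 0.35 against 0.3 and 0.27. The other libraries that stood apart, at 0.29 and 1.5, each matched another library of their group. The part that density had in any difference between these groups or libraries was not tested.

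Upstream sequences are shown for 5 of the genes whose windows held a match to a motif read by a transcriptional activator. Genes were read from the R64 assembly of RefSeq, with positions counted back from the first base of the start codon and capitals marking each motif. The first pair holds the Adr1 site TTGGAG on either strand (CTCCAA on the other), which 18.9% of the 5551 upstream windows of 500 bases also held. ADH2 (chrXIII:874604-874633, minus strand, 296 to 267 bases upstream) has 2 of them facing each other, and ALD4 (chrXV:1039612-1039641, plus strand, 228 to 199 bases upstream) has 2 in tandem. ACS1 (chrI:45427-45456, minus strand, 434 to 405 bases upstream) matches the carbon source-responsive element bound by Cat8, found in 0.811% of the windows. ALD6 (chrXVI:432098-432127, plus strand, 490 to 461 bases upstream) holds a Gal4 match, CGG and CCG 11 bases apart, within the coding sequence of YPL062W; 2.94% of the windows held one. ADH1 (chrXV:160760-160789, minus strand, 195 to 166 bases upstream) holds CTTCC, read by the glycolytic activator Gcr1, on either strand in 65.4% of the windows. The ADH1 window held 5 such matches, of which 2 are shown, and the ALD4 window held 2.
ADH2: ggcatCTCCAActtataagTTGGAGaaata
ALD4: tatctttttCTCCAACTCCAAcagagatgg
ACS1: taatcatctCGGACGAACGGcgtagcactc
ALD6: tccccaCGGGAATAAGGCAGCCGacaaaag
ADH1: ggtatacggcCTTCCTTCCagttacttgaa

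PDC1 and PDC5 held none of the motifs searched in their windows, and PDC6, ACS1 and ACS2 held 1 CCAAT box each (CCAAT or ATTGG, in 62.6% of the windows). A match is only a string of letters.

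The members are close paralogs, so the counts rest on where they differ. Libraries were made from the 3' end of polyadenylated RNA, with about 1 read per transcript, so levels of different genes can be set side by side without dividing by length. ADH2 and ADH1 are 88.8% identical over their coding sequences of 1047 bases, but 65.6% over the last 300 bases that were counted, where the longest shared run was 34 bases. PDC5 and PDC1 were 87.2% identical over the coding sequence and 58.2% over those last 300 bases, with a longest shared run of 21 bases. ACS1 and ACS2 were 60.2% identical and ALD4 and ALD6 61.3% identical over the coding sequence. The stretch of coding sequence 60 to 31 bases from the end is shown for the ADH pair (chrXIII:873321-873350 for ADH2 and chrXV:159578-159607 for ADH1, both minus strand), with the 4 bases that differ in capitals.
ADH2: tacgaaaagatggaGaagggCcaaatTgCt
ADH1: tacgaaaagatggaAaagggTcaaatCgTt

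All 9 genes are encoded in a single exon. PDC1 lies at chrXII:232390-234081, PDC5 at chrXII:410723-412414 and PDC6 at chrVII:651290-652981. ADH1 lies at chrXV:159548-160594 and ADH2 at chrXIII:873291-874337. ALD4 is at chrXV:1039840-1041399, ALD6 at chrXVI:432588-434090, ACS1 at chrI:42881-45022 and ACS2 at chrXII:445524-447575.

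**Figure D1:**
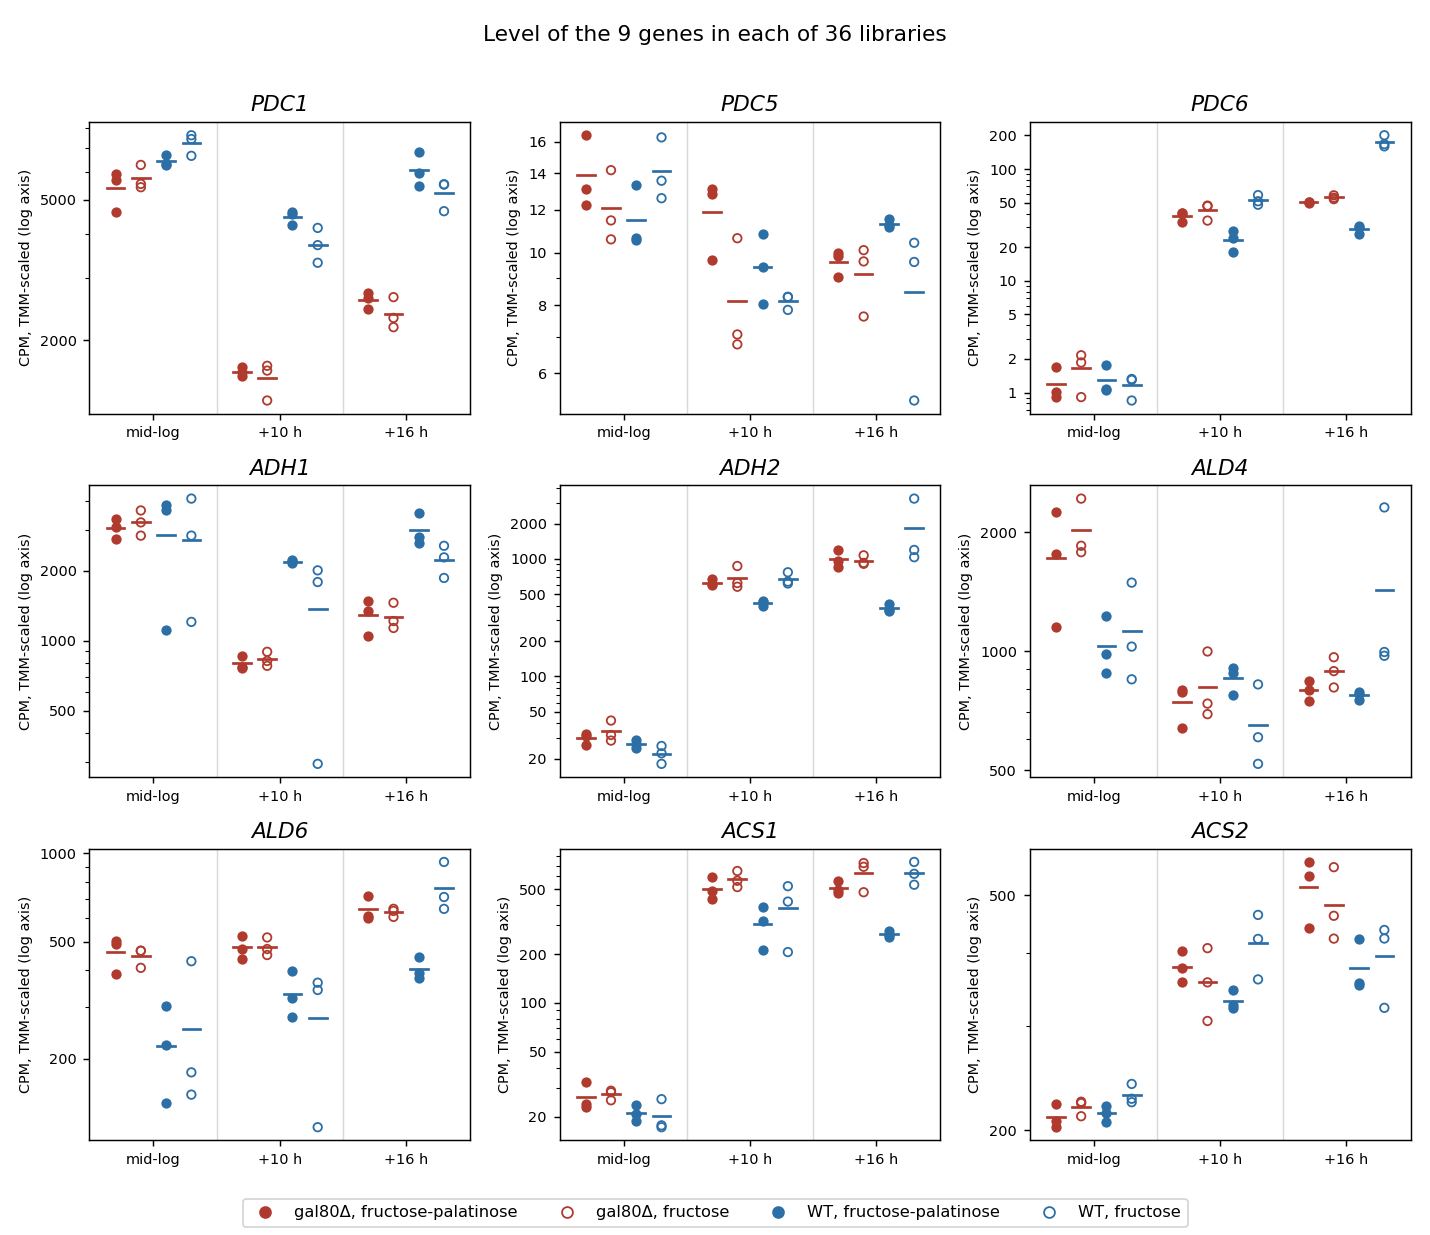
Level of each of the 9 genes in every library, in CPM on a log scale, by strain, medium and time. Points are libraries and bars are group means. PDC1 and ADH1 are the highest at mid-log, and ADH2, ACS1 and PDC6 are low at mid-log and high at both later times.

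More of these genes changed from mid-log to +10 h than from +10 h to +16 h, as was true of all genes. A gene was called changed where the adjusted p (Benjamini-Hochberg over all genes) was under 0.05 and the absolute log2 fold change over 0.5. From mid-log to +10 h the calls were 7 of 9 in gal80Δ with palatinose, 8 in gal80Δ in fructose, 5 in WT with palatinose and 8 in WT in fructose, where 50.5%, 52.7%, 45.7% and 55.2% of all genes were called. Among the members the calls split as 4 higher and 3, 4, 1 and 4 lower. From +10 h to +16 h the calls were 1, 1, 0 and 5 of the 9 in the same order of groups, against 8.6%, 9.27%, 1.59% and 11.1% of all genes. The 0 in WT with palatinose compares with 1 of 9 at an unadjusted p under 0.05 and 0 by DESeq2. In all, 35 of 72 tests over time passed, 23 higher and 12 lower. Over the libraries without the 3 that stood apart the count was 36.

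**Figure D2:**
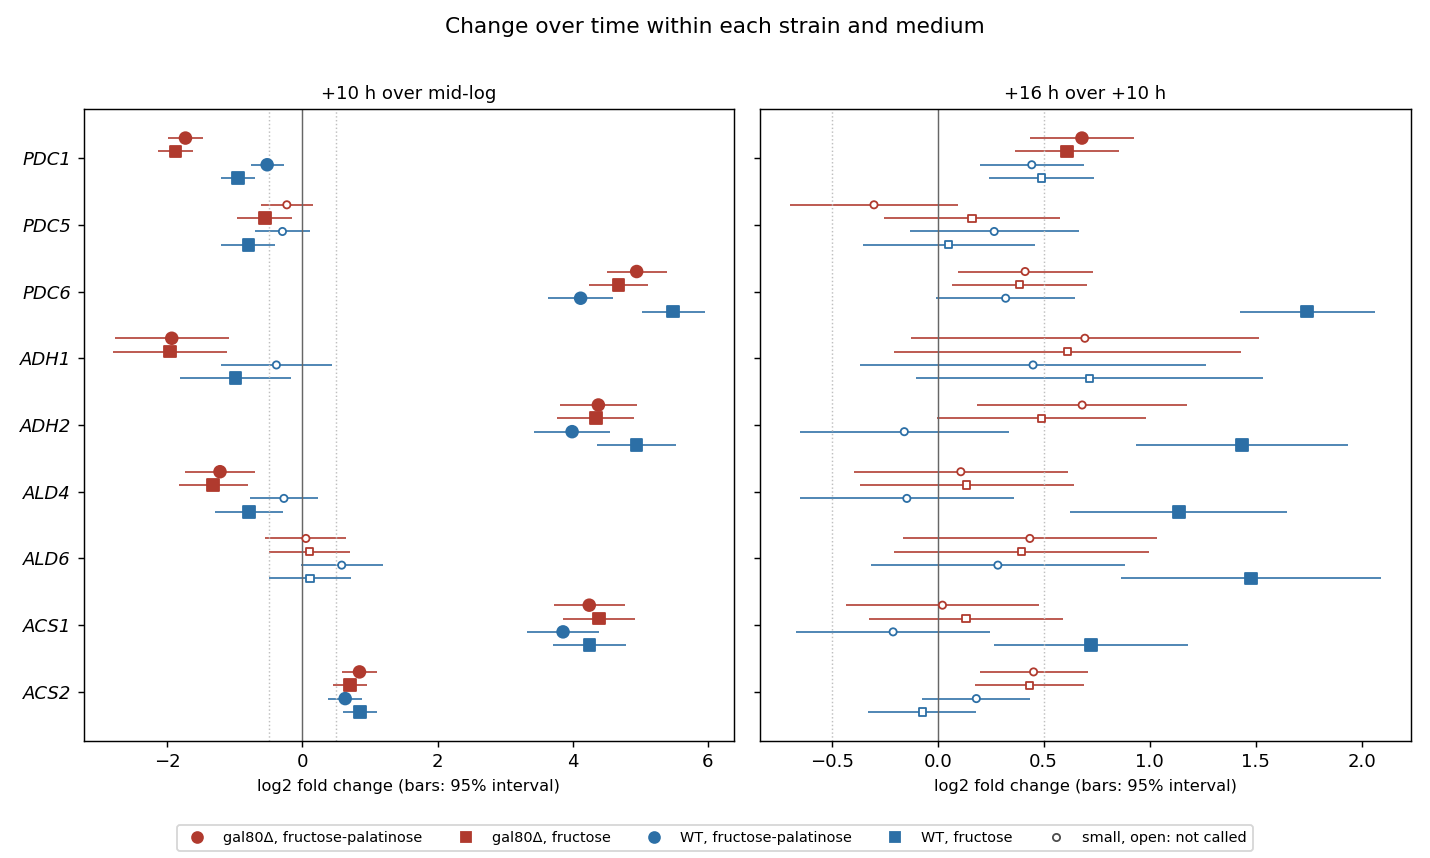
Log2 fold change of each gene from mid-log to +10 h and from +10 h to +16 h, in each strain and medium, with 95% intervals. Large filled symbols passed the test. PDC6, ADH2 and ACS1 lie between 3.86 and 5.49 at +10 h in all 4 groups, PDC1 lies below 0, and the second interval holds few changes outside WT in fructose.

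PDC1 encodes the main pyruvate decarboxylase. In gal80Δ with palatinose it was at 4612, 5667 and 5915 CPM at mid-log, 1625, 1677 and 1587 CPM at +10 h, and 2447, 2631 and 2728 CPM at +16 h. In gal80Δ in fructose it was at 5540, 5422 and 6271 CPM at mid-log, 1349, 1639 and 1692 CPM at +10 h, and 2312, 2176 and 2647 CPM at +16 h. In both media every +10 h library was lower than every mid-log library, and every +16 h library lay between them.

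In WT with palatinose PDC1 was at 6302, 6280 and 6672 CPM at mid-log, 4244, 4550 and 4606 CPM at +10 h, and 5472, 5948 and 6833 CPM at +16 h. WT in fructose held 7425, 7610 and 6655 CPM at mid-log, 3717, 4158 and 3313 CPM at +10 h, and 5528, 5517 and 4637 CPM at +16 h. At +10 h the lowest WT library was still above the highest gal80Δ library in either medium. PDC1 fell by 1.73 ± 0.13 (SE) on the log2 scale in gal80Δ with palatinose (adjusted p = 1.70e-12) and by 1.88 ± 0.13 in gal80Δ in fructose (adjusted p = 2.68e-13). It fell by 0.52 ± 0.13 in WT with palatinose (adjusted p = 8.07e-04) and by 0.96 ± 0.13 in WT in fructose (adjusted p = 1.31e-07). Without the 3 WT libraries the fold change in WT with palatinose was -0.49, which is under the fold minimum. Scaled by library size alone it was -0.27, with adjusted p = 0.102.

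PDC1 later rose in gal80Δ, by 0.68 ± 0.13 with palatinose and 0.61 ± 0.13 in fructose (adjusted p = 4.34e-04 and 0.00116), the call in fructose being lost without replicate A (0.55, adjusted p = 0.0645). The corresponding WT values were 0.44 (adjusted p = 0.0652) and 0.49 (adjusted p = 0.00816, under the fold minimum). In WT in fructose PDC1 passed at 0.58 (adjusted p = 0.00576) without the 3 libraries and at 0.57 (adjusted p = 0.00626) without replicate C of the +16 h group.

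PDC5, a decarboxylase that is usually induced when PDC1 is lost, stayed low, between 5.35 and 16.4 CPM in every library. In fructose at +10 h it was at 6.78, 10.6 and 7.07 CPM in gal80Δ and 8.28, 8.30 and 7.85 CPM in WT. At mid-log it was at 14.2, 11.5 and 10.6 CPM in gal80Δ and 13.6, 12.6 and 16.3 CPM in WT. PDC5 fell by 0.56 ± 0.21 in gal80Δ (adjusted p = 0.0217) and by 0.80 ± 0.20 in WT (adjusted p = 0.00114), but neither call held when libraries were scaled by size alone (-0.29 and -0.44). Only the WT groups did not overlap between the times. In palatinose no change of PDC5 over time passed.

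PDC6 encodes the decarboxylase that is nearly silent in sugar-grown cells. At mid-log it lay between 0.849 and 2.16 CPM in every library, only 6 to 19 counts. At +10 h it was at 33.5, 40.3 and 40.2 CPM in gal80Δ with palatinose and 47.1, 46.6 and 34.6 CPM in gal80Δ in fructose. In the WT it was at 27.7, 24.2 and 18 CPM with palatinose and 58.4, 51.5 and 47.9 CPM in fructose. All +10 h libraries were above all mid-log libraries.

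The rise of PDC6 was 30.9-fold in gal80Δ with palatinose, 25.6-fold in gal80Δ in fructose, 17.4-fold in WT with palatinose and 44.8-fold in WT in fructose (log2 4.95 ± 0.23, 4.68 ± 0.22, 4.12 ± 0.25 and 5.49 ± 0.24, with the highest adjusted p at 1.76e-14). At +16 h it was at 167, 160 and 201 CPM in WT in fructose, above every library of the other groups. There it rose again by 1.74 ± 0.16 over +10 h (adjusted p = 9.40e-09). The other 3 groups showed no further call, at 50.7, 49.3 and 51.2 CPM in gal80Δ with palatinose, 55.4, 53.7 and 58.2 CPM in gal80Δ in fructose, and 26.2, 30.1 and 30.7 CPM in WT with palatinose.

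ADH1 encodes the main fermentative alcohol dehydrogenase. In gal80Δ with palatinose it was at 2739, 3073 and 3327 CPM at mid-log, 863, 773 and 761 CPM at +10 h, and 1044, 1337 and 1482 CPM at +16 h. In gal80Δ in fructose it was at 3225, 2828 and 3630 CPM at mid-log, 895, 817 and 779 CPM at +10 h, and 1214, 1133 and 1455 CPM at +16 h. The times did not overlap in either medium.

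In WT with palatinose ADH1 was at 3815, 3650 and 1106 CPM at mid-log, 2213, 2152 and 2196 CPM at +10 h, and 2779, 2642 and 3554 CPM at +16 h. WT in fructose held 4082, 2830 and 1204 CPM at mid-log, 1786, 295 and 2006 CPM at +10 h, and 2281, 2558 and 1860 CPM at +16 h. The values 1106, 1204 and 295 CPM belong to the 3 libraries that stood apart.

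ADH1 fell by 1.94 ± 0.43 in gal80Δ with palatinose and by 1.96 ± 0.43 in gal80Δ in fructose (adjusted p = 3.18e-04 and 2.63e-04). In WT in fructose the fold change was -0.99 ± 0.42 (adjusted p = 0.0406) and in WT with palatinose -0.39 ± 0.42 (adjusted p = 0.449). Without those 3 libraries ADH1 was called lower in both, by 0.87 in WT in fructose (adjusted p = 2.48e-04) and by 0.77 in WT with palatinose (adjusted p = 3.34e-04). They were low in ADH1 itself, so leaving them out was bound to narrow its estimated spread. With palatinose the library left out was a mid-log one, so the fall was bound to deepen. These 2 values are therefore no separate evidence of a fall. Without replicate B the value in WT in fructose was -0.48 (adjusted p = 0.385), and with scaling by library size alone -0.66 (adjusted p = 0.138). In the set without those 3 libraries ADH1 also rose from +10 h to +16 h in gal80Δ, by 0.69 with palatinose and 0.61 in fructose. The adjusted p was 0.00211 and 0.00614, where over all libraries neither passed (adjusted p = 0.353 and 0.406). The gal80Δ groups hold none of those libraries, so the fold changes stayed the same and only the shared estimate of spread narrowed. In a fit of only the groups compared both rises passed, at 0.70 with palatinose and 0.64 in fructose (adjusted p = 0.0106 and 0.0406). That fit lost the fall in WT in fructose (-1.01, adjusted p = 0.249).

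ADH2 encodes the alcohol dehydrogenase that oxidises ethanol. At mid-log it was between 18.1 and 42.2 CPM in all 12 libraries, and at +10 h between 399 and 871 CPM, with no overlap. In gal80Δ with palatinose it was at 26.2, 32.7 and 31.3 CPM at mid-log, 597, 680 and 607 CPM at +10 h, and 1186, 962 and 862 CPM at +16 h. In gal80Δ in fructose it was at 28.5, 31.8 and 42.2 CPM, 871, 624 and 580 CPM, and 1074, 910 and 926 CPM at the same times. Each later group lay above the earlier one without overlap in both media.

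In WT with palatinose ADH2 was at 28.6, 24.6 and 26.7 CPM at mid-log, 430, 442 and 399 CPM at +10 h, and 361, 366 and 415 CPM at +16 h. WT in fructose held 25.6, 22.2 and 18.1 CPM, 618, 770 and 641 CPM, and 1035, 1194 and 3264 CPM. At both later times no WT library with palatinose reached the level of any WT library in fructose. The rise to +10 h was 20.8-fold in gal80Δ with palatinose, 20.3-fold in gal80Δ in fructose, 15.9-fold in WT with palatinose and 30.8-fold in WT in fructose (log2 4.38 ± 0.29, 4.34 ± 0.29, 3.99 ± 0.29 and 4.95 ± 0.30). ADH2 rose again in WT in fructose at +16 h, by 1.44 ± 0.26 (adjusted p = 2.24e-04). Without the library at 3264 CPM the rise was 0.73 (adjusted p = 0.00716), and in a fit of only the groups compared it was 1.42 (adjusted p = 0.0992) and no longer passed. The fit without that library also called ADH2 in 4 comparisons that did not pass over all libraries. These included gal80Δ with palatinose from +10 h to +16 h (0.68, adjusted p = 0.00425). WT at +10 h between media was at -0.67 (adjusted p = 0.00454). The strains differed by 0.56 at +10 h with palatinose (adjusted p = 0.0129) and 0.64 at mid-log in fructose (adjusted p = 0.0167). None of these comparisons holds that library, so the fold changes stayed the same and only the shared estimate of spread narrowed. In a fit of only the groups compared, gal80Δ with palatinose over time (0.69, adjusted p = 0.0127) and the +10 h strain difference (0.56, adjusted p = 0.00208) passed. The WT difference between media and the mid-log strain difference did not.

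ALD4 encodes the mitochondrial aldehyde dehydrogenase. In gal80Δ with palatinose it was at 1154, 2256 and 1759 CPM at mid-log, 790, 797 and 638 CPM at +10 h, and 842, 799 and 749 CPM at +16 h. In gal80Δ in fructose it was at 1849, 1781 and 2435 CPM, 998, 737 and 693 CPM, and 965, 890 and 809 CPM. Both later groups lay below every mid-log library of their medium. To +10 h ALD4 fell by 1.22 ± 0.26 with palatinose and by 1.32 ± 0.26 in fructose (adjusted p = 2.04e-04 and 7.39e-05). ADH2 and ACS1, whose products act before and after it on the way from ethanol to acetyl-CoA, rose in the same groups.

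In WT with palatinose ALD4 was at 1228, 883 and 985 CPM at mid-log, 879, 905 and 776 CPM at +10 h, and 751, 778 and 789 CPM at +16 h, and its change to +10 h was -0.27 ± 0.26 (adjusted p = 0.381). WT in fructose held 1492, 849 and 1027 CPM at mid-log, 824, 518 and 605 CPM at +10 h, and 974, 995 and 2313 CPM at +16 h. To +10 h it fell there by 0.79 ± 0.26 (adjusted p = 0.00899), a call that was lost without the 3 WT libraries (-0.71, adjusted p = 0.054) and with scaling by library size alone (-0.43, adjusted p = 0.0974). The rise of 1.14 ± 0.26 between +10 h and +16 h (adjusted p = 0.00311) dropped to 0.61 (adjusted p = 0.0971) without the library at 2313 CPM.

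ALD6 encodes the cytosolic aldehyde dehydrogenase, the main source of acetate in sugar-grown cells. In gal80Δ with palatinose it was at 387, 490 and 503 CPM at mid-log, 524, 438 and 472 CPM at +10 h, and 601, 613 and 716 CPM at +16 h. In gal80Δ in fructose it was at 466, 407 and 466 CPM, 517, 472 and 450 CPM, and 646, 607 and 636 CPM. Mid-log and +10 h overlapped in both media, and neither interval passed the test.

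In WT in fructose ALD6 was at 429, 180 and 151 CPM at mid-log, 363, 117 and 343 CPM at +10 h, and 646, 709 and 933 CPM at +16 h. It rose there from +10 h by 1.48 ± 0.31 (adjusted p = 0.00138), and by 1.12 (adjusted p = 0.00156) without the 3 libraries that stood apart. Without replicate B alone it was at 1.16 (adjusted p = 0.0944). In WT with palatinose ALD6 was at 301, 222 and 142 CPM, 397, 322 and 276 CPM, and 377, 392 and 444 CPM. The change to +10 h in that group was 0.58 ± 0.31 (adjusted p = 0.113), against 0.61 (adjusted p = 0.00538) in the fit of those groups with replicate as a block.

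ACS1 encodes the acetyl-CoA synthetase of non-fermentative growth. At mid-log it was at 22.9, 32.8 and 24.1 CPM in gal80Δ with palatinose and 25.2, 28.3 and 28.9 CPM in gal80Δ in fructose. At +10 h those groups were at 492, 593 and 433 CPM and 648, 564 and 516 CPM. At +16 h they were at 477, 566 and 492 CPM and 688, 725 and 480 CPM. No mid-log library came near the later ones.

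In WT with palatinose ACS1 was at 23.7, 20.9 and 18.8 CPM at mid-log, 389, 319 and 212 CPM at +10 h, and 263, 277 and 256 CPM at +16 h. WT in fructose held 25.6, 17.7 and 17.2 CPM, 523, 206 and 420 CPM, and 623, 534 and 737 CPM. The rise to +10 h was 19-fold in gal80Δ with palatinose, 21-fold in gal80Δ in fructose, 14.5-fold in WT with palatinose and 19-fold in WT in fructose (log2 4.25 ± 0.27, 4.39 ± 0.27, 3.86 ± 0.27 and 4.25 ± 0.27). The later change in WT in fructose, 0.72 ± 0.23 (adjusted p = 0.0376), was 0.42 (adjusted p = 0.247) without the 3 libraries and 0.60 (adjusted p = 0.143) without replicate C of the +16 h group.

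ACS2 encodes the synthetase that glucose-grown cells depend on. In gal80Δ with palatinose it was at 207, 202 and 221 CPM at mid-log, 402, 357 and 377 CPM at +10 h, and 441, 570 and 538 CPM at +16 h. In gal80Δ in fructose it was at 222, 211 and 224 CPM, 306, 407 and 356 CPM, and 462, 422 and 558 CPM. All mid-log libraries, in WT too, lay below all later ones. WT with palatinose held 214, 206 and 220 CPM, 345, 326 and 322 CPM, and 352, 355 and 422 CPM. WT in fructose held 226, 240 and 223 CPM, 360, 463 and 422 CPM, and 422, 437 and 322 CPM. To +10 h ACS2 rose by 0.84 ± 0.13 and 0.70 ± 0.13 in gal80Δ with and without palatinose, and by 0.63 ± 0.13 and 0.85 ± 0.13 in WT, with the highest adjusted p at 1.64e-04. ACS1 and ACS2 were both called higher in all 4 groups. In gal80Δ ACS2 was at 0.45 and 0.43 from +10 h to +16 h with and without palatinose (adjusted p = 0.0211 and 0.0262), under the fold minimum.

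**Figure D3:**
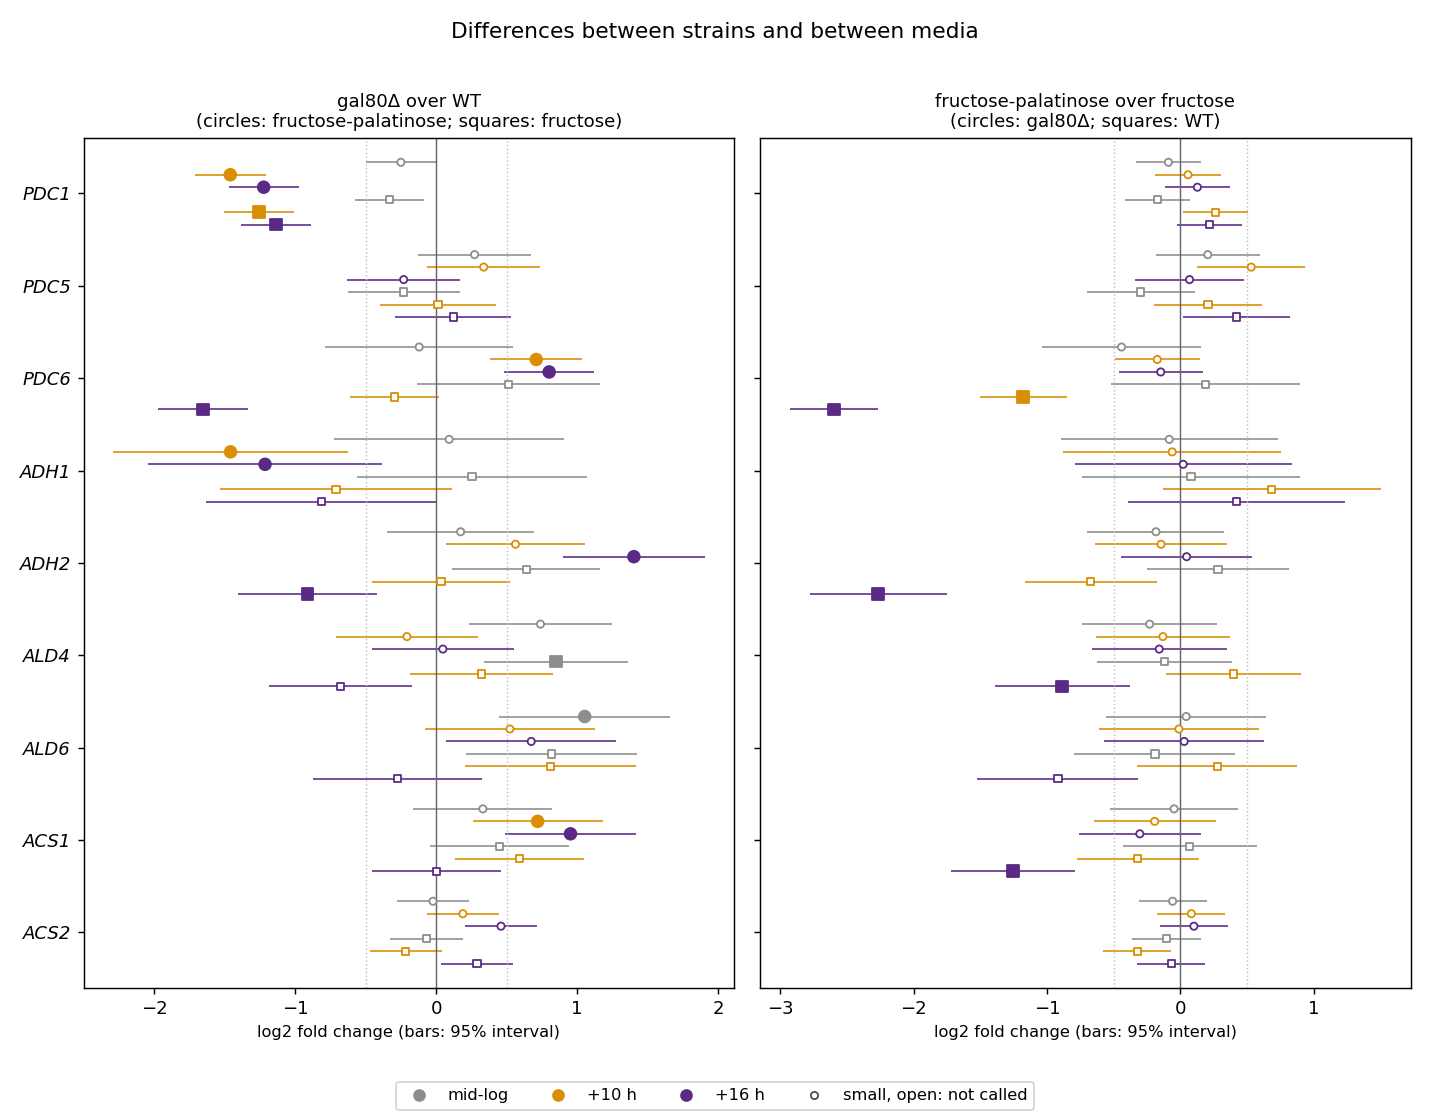
Log2 fold change of each gene between gal80Δ and WT in each medium and time, and between fructose-palatinose and fructose in each strain and time, with 95% intervals. Large filled symbols passed the test. PDC1 lies between -1.46 and -1.13 in gal80Δ at +10 h and +16 h, and the medium changes that passed lie at -0.89 or below and are all in WT.

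Between the strains, 15 of 54 tests passed, 7 higher and 8 lower in gal80Δ. With palatinose the calls were 1, 4 and 5 of the 9 at mid-log, +10 h and +16 h, against 8.01%, 14.3% and 12.8% of all genes. In fructose they were 1, 1 and 3, against 7.15%, 7.5% and 5.97%. Without the 3 WT libraries 17 passed.

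PDC1 passed in 4 of the 6 strain comparisons. In gal80Δ it was lower by 1.46 ± 0.13 on the log2 scale with palatinose at +10 h and by 1.22 ± 0.13 at +16 h, and in fructose by 1.25 ± 0.13 and 1.13 ± 0.13 (highest adjusted p = 1.44e-07). At mid-log the differences were -0.25 (adjusted p = 0.212) and -0.33 (adjusted p = 0.101), although the libraries did not overlap. ADH1 was lower in gal80Δ with palatinose, at -1.46 ± 0.42 at +10 h (adjusted p = 0.0154) and -1.21 ± 0.42 at +16 h (adjusted p = 0.0469), with no overlap of the libraries named above. In fructose it was at -0.71 (adjusted p = 0.304) and -0.81 (adjusted p = 0.272). Without the 3 WT libraries ADH1 was lower in all 4 comparisons, at -1.46, -1.21, -1.19 and -0.81 (highest adjusted p = 8.08e-04). Those libraries were low in ADH1 itself, so leaving them out was bound to narrow its estimated spread. Only the +10 h comparison in fructose holds any of them, and the other 3 fold changes stayed the same. Their adjusted p fell through the shared estimate of spread, which is no separate evidence of a difference. In a fit of only the groups compared ADH1 in fructose passed at +16 h (-0.81, adjusted p = 0.014) but not at +10 h. The call at +16 h with palatinose is close to the threshold, with adjusted p = 0.0557 under the replicate block and 0.0505 without WT in fructose at +16 h replicate C.

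ADH2, PDC6 and ACS1 differed in the other direction with palatinose. At +16 h ADH2 was higher in gal80Δ by 1.40 ± 0.26 (adjusted p = 2.58e-04), PDC6 by 0.80 ± 0.16 (adjusted p = 8.79e-04) and ACS1 by 0.95 ± 0.24 (adjusted p = 0.0055), with no overlap between the strains. At +10 h PDC6 was higher by 0.71 ± 0.17 (adjusted p = 0.003) and ACS1 by 0.72 ± 0.23 (adjusted p = 0.0309). ADH2 was at 0.56 ± 0.25 (adjusted p = 0.124). A fit of only those groups gave 0.56 without a block (adjusted p = 0.00208) and 0.56 with replicate as a block (adjusted p = 4.86e-04). ALD6 gave 0.52 (adjusted p = 0.25) over all libraries. In the fit of only those groups ALD6 was at 0.52 without the block (adjusted p = 0.0122) and 0.53 with it (adjusted p = 0.00143). Both genes thus passed there without the block. ACS2 was at 0.46 ± 0.13 at +16 h (adjusted p = 0.0144), under the fold minimum. ALD6 was at 0.67 at +16 h (adjusted p = 0.138). It passed at 0.67 (adjusted p = 0.0153) without the 3 WT libraries, which were low in ALD6 and are not in those groups. A fit of only those groups also gave 0.67 (adjusted p = 0.00431). The density at harvest of those +16 h groups was 1.9 to 2.1 in gal80Δ against 2.6 to 2.8 in WT, and its part was not tested.

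With 1 replicate letter left out of every group, the palatinose calls of ADH1 (adjusted p 0.0568 to 0.138) and ACS1 (0.0535 to 0.205) at +10 h were lost whichever letter it was, as was that of ADH1 at +16 h (adjusted p 0.099 to 0.272). The +10 h call of PDC6 was lost without B (adjusted p = 0.0934) or C (adjusted p = 0.0757), and the +16 h call of ACS1 without C (adjusted p = 0.0531). PDC1 kept its 4 strain calls in each case.

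In fructose alone PDC6 had the opposite sign. At +16 h it was lower in gal80Δ by 1.65 ± 0.16 (adjusted p = 9.48e-09), at 55.4, 53.7 and 58.2 CPM in gal80Δ against 167, 160 and 201 CPM in WT. ADH2 was at -0.91 ± 0.25 (adjusted p = 0.0235), but its libraries overlapped. Without replicate C of WT the ADH2 difference was -0.20 (adjusted p = 0.607). ACS1 was at 0.0034 ± 0.23.

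At mid-log the 2 calls were of aldehyde dehydrogenases. ALD6 was higher in gal80Δ with palatinose by 1.05 ± 0.31 (adjusted p = 0.0264), and by 0.81 (adjusted p = 0.0217) without the 3 WT libraries, but the call was lost without replicate B (1.01, adjusted p = 0.151) or C (0.74, adjusted p = 0.288). ALD4 was higher in fructose by 0.85 ± 0.26 (adjusted p = 0.037), and at 0.79 (adjusted p = 0.103) without the 3 libraries. This call was also lost without replicate B (0.77, adjusted p = 0.339) or C (0.63, adjusted p = 0.249) of every group and in a fit of only the groups compared (0.82, adjusted p = 0.138). With palatinose ALD4 was at 0.74 (adjusted p = 0.0635). The adjusted p was 0.0212 without WT in fructose at +16 h replicate C, a library outside that comparison. At the later times ALD4 was at -0.21 and 0.05 with palatinose and 0.32 and -0.68 in fructose (lowest adjusted p = 0.115). PDC5 passed in none of the strain comparisons, at -0.23 to 0.34 (lowest adjusted p = 0.267).

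Between the media, 5 of 54 tests passed, all in WT and all lower with palatinose. In gal80Δ no member passed at mid-log, +10 h or +16 h, against 0.128%, 0.146% and 0.128% of all genes. At an unadjusted p under 0.05 the gal80Δ counts were 0, 1 and 0, and DESeq2 called 0. In WT the calls were 0, 1 and 4, against 0.128%, 11.6% and 6.19% of all genes; at mid-log no member had an unadjusted p under 0.05 and DESeq2 called 0.

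In WT at +10 h PDC6 was lower with palatinose by 1.18 ± 0.17 (adjusted p = 1.04e-05). ADH2 was at -0.67 ± 0.25 (adjusted p = 0.0692) and did not pass. At +16 h ADH2 was lower by 2.27 ± 0.26 (adjusted p = 3.76e-07), at 361, 366 and 415 CPM with palatinose against 1035, 1194 and 3264 CPM in fructose. Without the library at 3264 CPM it was lower by 1.56 (adjusted p = 3.23e-07). PDC6 was lower by 2.60 ± 0.17 (adjusted p = 7.88e-13), at 26.2, 30.1 and 30.7 CPM with palatinose against 167, 160 and 201 CPM in fructose. ACS1 was lower by 1.25 ± 0.24 (adjusted p = 7.04e-04), at 263, 277 and 256 CPM in fructose-palatinose against 623, 534 and 737 CPM in fructose, a call that was lost without replicate C (-1.11, adjusted p = 0.0634).

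The fourth call, ALD4 at -0.89 ± 0.26 (adjusted p = 0.0304), was at -0.35 (adjusted p = 0.47) without replicate C in fructose at +16 h. ALD6 was at -0.92 ± 0.31 (adjusted p = 0.064). It was called at -0.92 (adjusted p = 0.00288) without the 3 libraries that stood apart, which were low in ALD6 and are not in these groups. A fit of only these groups gave -0.93 (adjusted p = 0.00063). The density at harvest of these 2 WT groups was 2.6 to 2.8 with palatinose against 1.85 to 2.1 in fructose, and its part was not tested. PDC5 passed between media in neither strain, at -0.30 to 0.53 (lowest adjusted p = 0.24).

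Whether a difference itself differed was tested in 7 further contrasts, and 6 of 63 tests passed. The medium difference was set between strains at mid-log, +10 h and +16 h, with 0, 1 and 2 members called against 0%, 0.803% and 1.53% of all genes. The change to +10 h was set between strains with 1 member called in each medium, against 2.61% of all genes with palatinose and 0.621% in fructose. For the change from +10 h to +16 h, 0 and 1 members passed, against 0.219% and 0.657% of all genes. At mid-log no member had an unadjusted p under 0.05 and DESeq2 called 0, and for the later change with palatinose 1 did and DESeq2 called 0.

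For PDC6 at +16 h the medium difference (fructose-palatinose minus fructose) was -0.15 in gal80Δ against -2.60 in WT, which differ by 2.45 ± 0.23 (adjusted p = 9.35e-09). For ADH2 it was 0.05 in gal80Δ against -2.27 in WT, which differ by 2.31 ± 0.36 (adjusted p = 1.44e-04), or by 1.60 (adjusted p = 7.19e-05) without WT in fructose at +16 h replicate C. For PDC6 at +10 h it was -0.17 in gal80Δ against -1.18 in WT, which differ by 1.01 ± 0.23 (adjusted p = 0.0235). PDC6 rose by less in gal80Δ than in WT between +10 h and +16 h in fructose, with a difference of -1.36 ± 0.23 (adjusted p = 0.00301). PDC1 fell further in gal80Δ than in WT from mid-log to +10 h, by 1.21 ± 0.18 with palatinose and by 0.92 ± 0.18 in fructose (adjusted p = 6.35e-05 and 0.00477). The 2 calls of a medium difference at +16 h held under every alternative, and the other 4 were lost when some replicate was left out. Without the 3 WT libraries, which were low in ADH1, its change to +10 h also passed, at -1.16 with palatinose and -1.09 in fructose. The adjusted p was 0.00284 and 0.0213, against 0.18 and 0.645 over all libraries. Leaving out those libraries was bound to narrow the estimated spread of ADH1. PDC5 and ALD4 passed none of these tests (lowest adjusted p = 0.642 and 0.174).

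The balance between paralogs is given as ratios of CPM per library. The mean ratio of ADH2 to ADH1 at mid-log was 0.0099, 0.0106, 0.0128 and 0.0097 in gal80Δ with and without palatinose and WT with and without it. In WT the libraries that stood apart were at 0.0241 with palatinose and 0.0150 in fructose, and the means without them were 0.0071 in each medium. At +10 h it was 0.790 ± 0.0946 and 0.827 ± 0.127 in gal80Δ with and without palatinose (SD, n = 3 each), and 0.194 ± 0.0119 in WT with palatinose. In WT in fructose it was 1.09 ± 1.32, because the library with low ADH1 gave 2.61; the ratio of summed counts was 0.513. At +16 h it was 0.812 ± 0.288 in gal80Δ with palatinose, 0.775 ± 0.127 in gal80Δ in fructose, 0.128 ± 0.0110 in WT with palatinose and 0.892 ± 0.747 in WT in fructose. The 3 libraries of that last group were at 0.454, 0.467 and 1.75, and the mean without replicate C was 0.460. An exact permutation test of 3 against 3 libraries cannot go below 0.10, so no test was run on ratios.

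**Figure D4:**
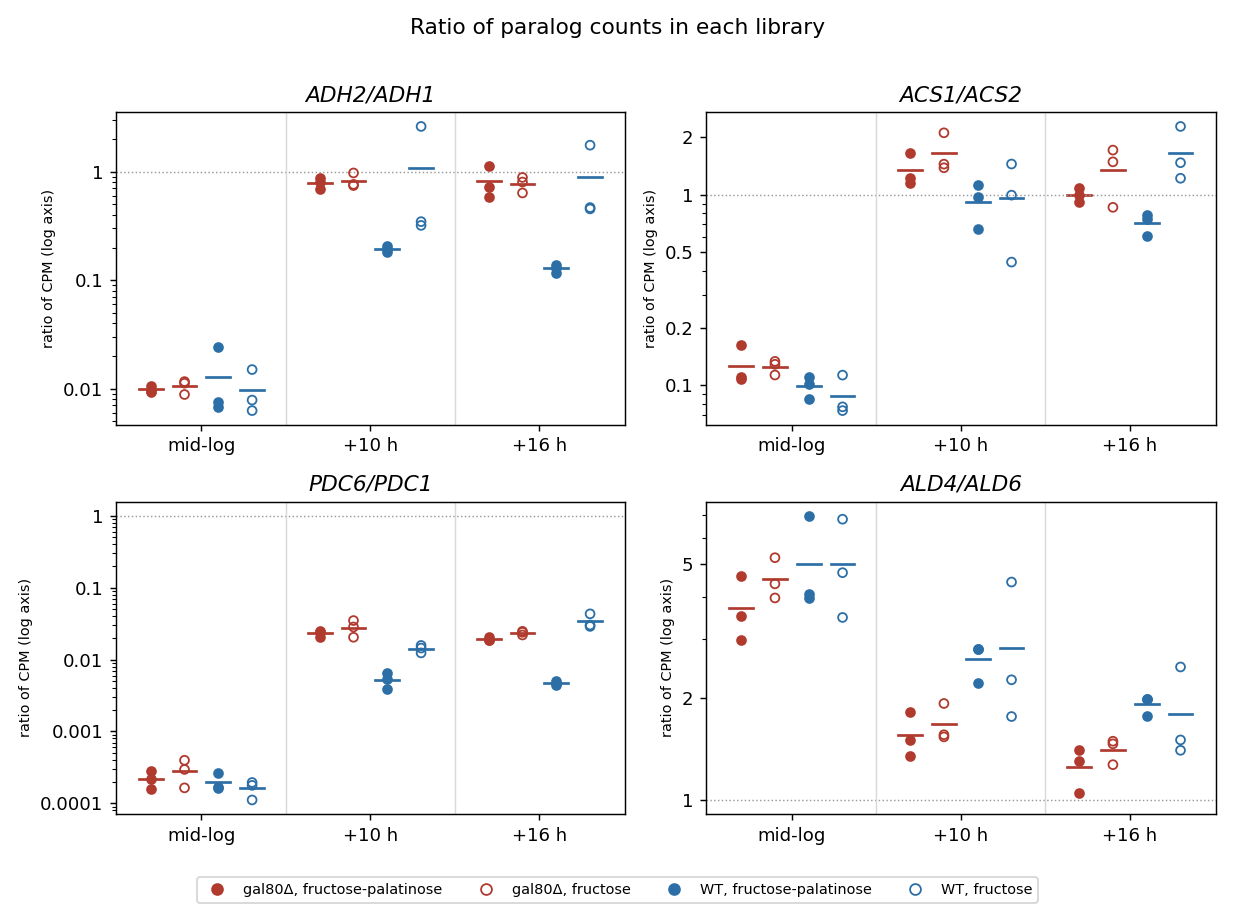
Ratio of CPM between paralogs in each library, on a log axis, by group: ADH2 to ADH1, ACS1 to ACS2, PDC6 to PDC1 and ALD4 to ALD6. At +10 h and +16 h, ADH2 to ADH1 in WT with palatinose lies below every other group.

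ACS1 to ACS2 was 0.127, 0.125, 0.0991 and 0.0881 at mid-log in the same group order. At +10 h it was 1.34, 1.65, 0.920 and 0.964, and at +16 h 0.997, 1.36, 0.711 and 1.66. In WT in fructose the +10 h libraries were at 1.45, 0.444 and 0.996, the 0.444 in the library that stood apart. The +16 h libraries were at 1.47, 1.22 and 2.29, the 2.29 in replicate C. PDC6 to PDC1 averaged 0.00478 in WT with palatinose at +16 h, against 0.0341 in WT in fructose, its highest group mean. ALD4 to ALD6 was 3.70, 4.53, 5.00 and 5.00 at mid-log and 1.25, 1.41, 1.92 and 1.80 at +16 h. At mid-log the WT libraries that stood apart were at 6.96 with palatinose and 6.80 in fructose, and the other WT libraries at 3.48 to 4.72.

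The order of group means gives the range of each gene. ADH2 had its highest mean in WT in fructose at +16 h, 83.4 times its lowest mean and 46.6 times without the 4 WT libraries named above, and the next groups down, gal80Δ at +16 h in both media, overlapped. PDC6 spanned 152-fold, with WT in fructose at +16 h above the next group without overlap. ACS1 spanned 31.3-fold, and its 4 highest groups overlapped in turn. The others spanned 4.63-fold for PDC1, 4.04-fold for ADH1, 3.44-fold for ALD6, 3.11-fold for ALD4, 2.45-fold for ACS2 and 1.74-fold for PDC5.

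For the genes whose group means were most like each member over the 12 groups, Pearson's r on log2 CPM was used as a description, the points sharing libraries and depth. PDC1 was most like the glycolytic genes GPM1 (0.978) and TDH3 (0.976) and then AAH1 (0.968). For ADH1 these were the pyruvate kinase gene CDC19 (0.962), YLR342W-A (0.960) and EXG1 (0.953). The libraries that stood apart, which were low in ADH1, enter these group means. PDC6 was most like RCN1 (0.994), ADH2 (0.993) and GRE1 (0.991), and ADH2 most like GRE1 (0.996), PDC6 (0.993) and ADY2 (0.993). ACS1 was most like the peroxisomal thiolase gene POT1 (0.998), the malate dehydrogenase gene MDH2 (0.997) and SPG4 (0.996), and ACS2 most like PLB3 (0.987), ARN2 (0.980) and BCK2 (0.978). ALD4 was most like YPK1 (0.890), ERG12 (0.885) and HSC82 (0.871), ALD6 most like MUS81 (0.927), CDC39 (0.915) and SOH1 (0.913), and PDC5 most like KIN3 (0.907), FEX2 (0.905) and YNL108C (0.896).

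The rest of the pathway was read from a list of 24 other genes, all tested: other alcohol and aldehyde dehydrogenases, genes that handle acetate and acetyl units, and regulators. From mid-log to +10 h 17 rose and 0 fell in gal80Δ with palatinose, 18 and 1 in gal80Δ in fructose, 16 and 3 in WT with palatinose and 17 and 2 in WT in fructose, with list medians of 1.06, 1.36, 1.06 and 1.41 against 0.05, 0.06, 0.02 and 0.02 over all genes, of which 50.5%, 52.7%, 45.7% and 55.2% were called. The carnitine carrier gene CRC1 rose by 7.51, 7.57, 5.19 and 6.89 on the log2 scale in that order. SIP4, an activator of gluconeogenic genes, rose by 7.28, 7.14, 4.85 and 7.13. YAT1, a carnitine acetyltransferase gene, rose by 6.19, 6.34, 4.74 and 6.10.

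Between strains 4, 12 and 13 of the 24 were higher and 0 lower in gal80Δ with palatinose at mid-log, +10 h and +16 h, where 8.01%, 14.3% and 12.8% of all genes were called in either direction. With 1 replicate letter left out of every group the counts higher were 0 to 5, 7 to 10 and 9 to 11, the lowest being 0 and 7 without B and 9 without A or B. In fructose 4, 5 and 1 were higher and 0, 0 and 1 lower, where 7.15%, 7.5% and 5.97% of all genes were called. With palatinose at +10 h the largest were CRC1 at 2.25, the acetyltransferase gene CAT2 at 1.70 and YAT2 at 1.69. Among the acetate and acetyl genes alone, 8 of 8 were higher at +16 h with palatinose, where 306 of all 5479 genes were called higher. In fructose at +16 h 0 of these 8 were called. The other parts of the list held fewer at +16 h with palatinose. These were 1 of 6 alcohol dehydrogenases, 1 of 3 aldehyde dehydrogenases and 3 of 7 regulators. Between media, WT had 10 of 24 lower with palatinose at +16 h and 6 lower and 1 higher at +10 h, against 6.19% and 11.6% of all genes called, and gal80Δ had 0 at each time. Leaving out 1 replicate letter gave 4 to 8 lower in WT at +16 h, with 4 without A. The largest WT differences at +16 h were in ADY2 (-2.50) and ATO3 (-2.12), genes of the Ato family of acetate and ammonium transport proteins, and in the aldehyde dehydrogenase gene ALD3 (-1.41). Without the 3 WT libraries the list counts with palatinose stayed at 4, 12 and 13. Between media in WT at +16 h 11 were then lower, but those 3 libraries are not in the groups compared. Without WT in fructose at +16 h replicate C, 9 were lower there. In that group ADY2 ran from 104 to 251 CPM (median 112) and ATO3 from 208 to 407 CPM (median 215).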

How the data were processed

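The authors deposited raw counts per gene and library from QuantSeq 3' REV sequencing, and optical density (OD) at harvest. Per the labels and the study's methods, adapters were trimmed with cutadapt 1.18, reads aligned with HISAT2 2.1.0 to R64 and counts taken with featureCounts of Subread 2.0.0 over transcript intervals. The deposited cpm column (1 per-sample column) was not used.

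Counts were fitted with edgeR 4.0.16 in R 4.3.3 (quasi-likelihood test, TMM scaling, default filter, 1 fit of all 36 libraries, common dispersion 0.0314), with Benjamini-Hochberg adjustment over 5479 genes and a call at adjusted p under 0.05 and absolute log2 fold change over 0.5. CPM are on TMM-scaled library sizes. On simulated data for the +10 h strain comparison with palatinose, 80% of genes changed by log2 1 and 99% changed by log2 2 were recovered, with 6 false calls among 5457 genes. The changed genes were drawn from the better-counted ones, and no libraries that stand apart were simulated, so the recovery does not cover low counts or such libraries. Sequence identities used Biopython 1.88. Counting floors cover counting error only.

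The members and the pathway list were chosen with earlier results of these data known. The rule for named genes took all 9 members, up to 3 of the largest called changes of the pathway list in a comparison, and the 3 most alike genes for each member.

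Replicate letters recur across groups. Deviations of same-letter libraries correlated at -0.591 to 0.656 (median -0.00288, 60 pairs), and every pair exceeded 0.1 in 3 of 20 contrasts: WT at mid-log between media, the strains at +10 h with palatinose, and WT with palatinose from mid-log to +10 h. A fit of only the groups compared, with the block, is given beside those results where it changed a call. The alternatives were DESeq2 1.42.0, library-size scaling, no filter, only the groups compared, replicate and culture blocks, other fold minimums and leaving out each replicate. Fits without the 3 WT libraries, without WT in fructose at +16 h replicate C, and with the block in only the groups compared, and ranges of group means without those 4 libraries, were added after seeing the data.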

Additional observations from a re-analysis of the deposited data

Results flagged for a closer look

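In 6 cases an effect differed between strains by an interaction test in edgeR's fit. PDC6 differed in its medium difference at +10 h by 1.0058 (adjusted p = 0.0235) and at +16 h by 2.4540 (adjusted p = 9.35e-09), and ADH2 at +16 h by 2.3130 (adjusted p = 1.44e-04), or 1.6018 (adjusted p = 7.19e-05) without WT in fructose at +16 h replicate C. PDC1 differed in its change from mid-log to +10 h by -1.2093 with palatinose (adjusted p = 6.35e-05) and by -0.9222 in fructose (adjusted p = 0.00477). PDC6 differed in its change from +10 h to +16 h in fructose by -1.3565 (adjusted p = 0.00301). Leaving out 1 replicate letter from every group ended the call for PDC6 at +10 h between media (without A, B or C), for PDC6 over the later interval in fructose (without A, B or C), for PDC1 in fructose (without A or B) and for PDC1 with palatinose (without B).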

How the results depend on the processing

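The 9 genes gave 35 of 72 calls over time, 5 of 54 between media, 15 of 54 between strains and 6 of 63 between differences. With a minimum log2 fold change of 1 the calls over time were 22 and those between strains 9. Leaving out 1 replicate letter at a time gave 7 to 14 strain calls (7 without C) and 2 to 4 calls of a difference between differences (2 without B). With the replicate block the calls were 35, 5, 14 and 6, and with the culture block 34 over time, without ADH1 in WT in fructose. Without WT in fructose at +16 h replicate C the strain calls were 16. A fit of only the groups compared lost 12 calls and added 11. Calls that held under every alternative numbered 19, 3, 6 and 2. Scaling by library size alone shifted the median of all genes from mid-log to +10 h to between 0.283 and 0.375 on the log2 scale, against 0.016 to 0.062 with TMM. No fold change of a called result reversed. Over all genes, DESeq2 called 110 against 44 for the strain difference of the medium difference at +10 h, and a fit of only the compared groups called 39 against 411 between strains in fructose at +10 h. The depth limits PDC6 at mid-log, at 6 to 19 counts, and the design limits precision to 3 libraries a group.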
